A study of Mus musculus with 16 samples.

Results

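The data compare liver RNA of male mice whose hepatocytes lack a functional retinoid X receptor alpha (hs-RXRα KO) with liver RNA of male wild-type (WT) mice. The comparison rests on 6 arrays, 3 male KO livers (numbered 4, 5 and 6 in the sample titles) and 3 male WT livers (numbered 1, 2 and 3), chosen by the sex and genotype labels out of 16 arrays in the series. The other 10 arrays are 5 female KO and 5 female WT livers. All mice were 2 months old, no treatment is stated, and strain, litter and fasting state are not given in the sources used here. The KO genotype is labelled hs-RXRa-Dex4-/-, and the study cites earlier mice in which the DNA-binding domain of RXRα was deleted in hepatocytes; the driver of the deletion is not given in the sources used here, and other liver cells keep the gene by design. Each liver had its own Illumina array (mouse Ref-6 v2). Of 19057 genes with a probe on the array, 9906 met the rule for testing, detection on at least 3 of the 16 arrays, and a gene's brightest detected probe stands for it.

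RXRα is a nuclear receptor that binds 9-cis retinoic acid and other lipids, and it binds DNA as a pair with other nuclear receptors. Its partners include PPARα, which controls fatty acid oxidation, LXR and FXR, which sense oxysterols and bile acids, CAR and PXR, which control drug metabolism, and the receptors for thyroid hormone, retinoic acid and vitamin D. Hepatocytes use these pairs to adjust lipid, bile acid and xenobiotic metabolism to diet and hormones.

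Values are normalized probe intensities, which are comparable between arrays for a given gene but not between genes. A value below 0 lies under the array's background, and a probe was called detected above an intensity of about 21 (20.9 to 21 over the arrays). Differences are male KO minus male WT on the scale log2(intensity + 16), which understates the change of dim genes. They were tested by limma with a threshold of 0.05 on the p-value, after Benjamini-Hochberg adjustment across the 9906 genes. Where no array of 1 genotype detected a gene, the fold was taken against the detection limit and is written "at least", computed on the same scale. The labels number the livers but do not say whether mice shared a litter or cage, so the p-values measure the spread between these samples. In whole liver, fewer cells of a type and less RNA per cell cannot be told apart.

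The labels were checked first. The 1 probe of Rxra itself had intensities of 62.1, 109 and 84.4 in male KO livers, against 78.4, 47.7 and 65.5 in male WT livers, a log2 difference of 0.33 (SE 0.24, adjusted p = 0.547), and the groups overlapped. Where this probe lies relative to the deleted stretch is not given in the sources used here, so it does not check the deletion. Xist was detected on none of the 6 male arrays, and the Y-linked genes Eif2s3y, Kdm5d and Uty were detected on all 6. On female arrays Eif2s3y and Kdm5d were not detected, and Uty was detected on 1 KO and 1 WT array. The probe of a further Y-linked gene, Gm20747, did not follow the sex labels. It was detected on 1 of 3 male KO and 2 of 3 male WT arrays, and on all 5 female KO and all 5 female WT arrays. The 12 hepatocyte markers (albumin, transthyretin, carbamoyl phosphate synthetase and others) were all detected, and their summed intensity was 187998 to 198133 in KO livers and 170959 to 189631 in WT livers. Between 8830 and 8890 genes were detected on the KO arrays and 8725 to 8806 on the WT arrays, and each array's mean correlation within its genotype was 0.9803 to 0.981 in KO and 0.9746 to 0.9811 in WT.

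Male KO and WT livers differed in 149 genes, 1.50% of those tested. Of these 87 (0.878% of all genes tested) were higher in KO livers and 62 (0.626%) were lower. At an unadjusted p under 0.05 the counts were 747 and 672. The called genes had a median log2 difference of 1.24 among the higher and -1.38 among the lower ones (1.16 and -1.24 with genes undetected in 1 genotype set to their bound), and 65 and 50 of them were past 2-fold in the fitted difference. The median over all genes tested was 0.0208. In all 149 genes the 3 KO arrays lay wholly on one side of the 3 WT arrays, and this was so for 23.1% of all genes tested. The counts depended on single livers: without WT 2 there were 74 calls, without WT 3 there were 79, without KO 4 there were 80 and without KO 5 there were 86. No called gene changed direction in any of 26 alternative settings that tested it. Of the 149, 43 were tested and passed in all 26, and 9 more passed wherever they were tested.

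**Figure D1:**
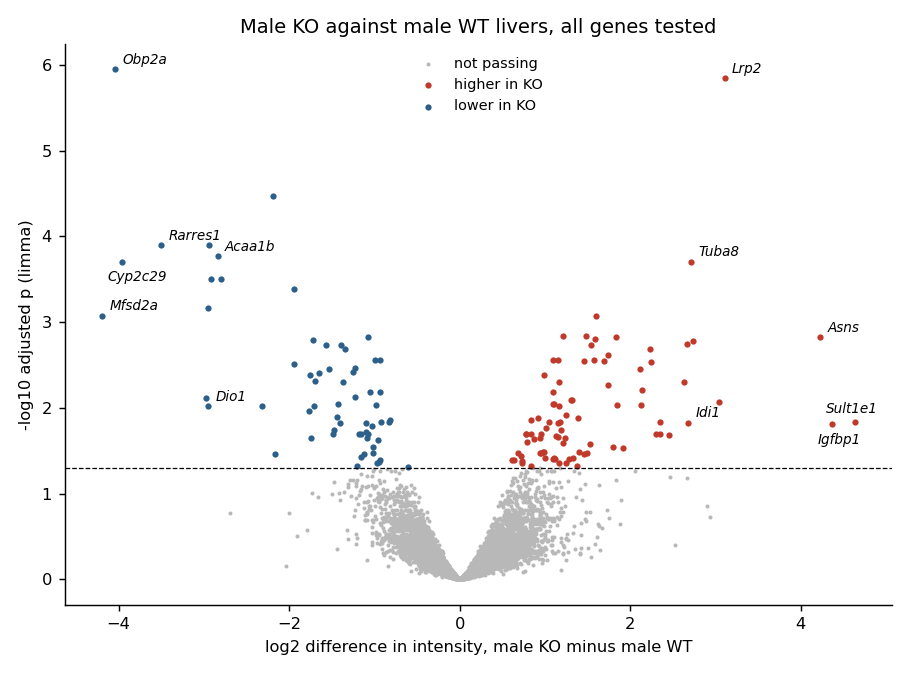
All 9906 genes tested, with the log2 difference of male KO minus male WT on the horizontal axis and -log10 of limma's adjusted p on the vertical axis; the dashed line is the threshold of 0.05. The 87 genes higher in KO (red) and the 62 lower in KO (blue) lie above the line, with Lrp2 and Obp2a at the top on either side.

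Among the genes that fell in KO livers were those of 4 cytochrome P450 enzymes of subfamily 2C, which hydroxylate drugs and epoxidize arachidonic acid. Cyp2c29 had intensities of 79.9, 431 and 380.0 in male KO livers, against 4386, 3265 and 4482 in male WT livers, with every KO value below every WT value. Its log2 difference was -3.97 (SE 0.45, adjusted p = 0.000197). Cyp2c37 had intensities of 589, 1378 and 2964 in male KO livers, against 10007, 10007 and 11687 in male WT livers, a log2 difference of -2.96 (SE 0.38, adjusted p = 0.000687). Cyp2c50 had intensities of 734, 1411 and 2525 in male KO livers, against 10133, 10384 and 11612 in male WT livers, a log2 difference of -2.94 (SE 0.31, adjusted p = 0.000127). In these 3 genes the WT livers lay close together and the KO livers spread widely, with KO 4 lowest in each. Cyp2c54, at 46.0, 75.7 and 194 in male KO livers, against 353, 608 and 626 in male WT livers, was also lower, at -2.32 (SE 0.43, adjusted p = 0.00951), and lost its call in 5 of the 26 alternatives. The subfamily's members are close in sequence, and how far their probes share signal was not tested. The 6 other tested members of the subfamily did not pass, with differences of 0.84 (adjusted p = 0.22) for Cyp2c23, 0.03 (adjusted p = 0.989) for Cyp2c39, 0.82 (adjusted p = 0.318) for Cyp2c40, -0.40 (adjusted p = 0.813) for Cyp2c55, 0.27 (adjusted p = 0.637) for Cyp2c67 and 0.04 (adjusted p = 0.945) for Cyp2c70.

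The promoters of 3 of these genes, which lie near each other on chromosome 19, and that of Mfsd2a, the gene with the largest fitted fall, are shown because RXRα pairs bind DNA through half-sites of the letters AGGTCA. The sequences run from 250 bases before to 50 bases after the start of the RefSeq gene (build GRCm38.p6), read along the gene's strand, and capitals mark AGGTCA or its reverse complement TGACCT.
Cyp2c29, chr19:39286835-39287134 (+ strand): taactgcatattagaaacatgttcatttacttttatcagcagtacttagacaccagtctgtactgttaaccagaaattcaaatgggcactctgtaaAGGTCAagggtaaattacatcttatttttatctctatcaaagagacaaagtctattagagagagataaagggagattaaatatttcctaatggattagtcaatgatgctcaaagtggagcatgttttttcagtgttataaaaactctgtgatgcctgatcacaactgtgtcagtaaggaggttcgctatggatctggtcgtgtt
Cyp2c37, chr19:39992174-39992473 (+ strand): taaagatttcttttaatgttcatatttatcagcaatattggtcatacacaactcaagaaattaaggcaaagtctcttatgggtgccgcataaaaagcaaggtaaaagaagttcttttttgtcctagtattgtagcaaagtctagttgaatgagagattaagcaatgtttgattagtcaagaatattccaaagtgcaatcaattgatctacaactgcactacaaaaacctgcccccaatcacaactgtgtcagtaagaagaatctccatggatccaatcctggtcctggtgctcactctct
Cyp2c50, chr19:40089429-40089728 (+ strand): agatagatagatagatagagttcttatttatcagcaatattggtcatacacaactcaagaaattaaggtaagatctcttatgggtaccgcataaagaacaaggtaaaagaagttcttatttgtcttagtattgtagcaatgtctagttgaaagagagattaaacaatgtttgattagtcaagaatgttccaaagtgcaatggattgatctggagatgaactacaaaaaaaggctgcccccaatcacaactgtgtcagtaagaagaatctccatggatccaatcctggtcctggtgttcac
Mfsd2a, chr4:122961139-122961438 (- strand): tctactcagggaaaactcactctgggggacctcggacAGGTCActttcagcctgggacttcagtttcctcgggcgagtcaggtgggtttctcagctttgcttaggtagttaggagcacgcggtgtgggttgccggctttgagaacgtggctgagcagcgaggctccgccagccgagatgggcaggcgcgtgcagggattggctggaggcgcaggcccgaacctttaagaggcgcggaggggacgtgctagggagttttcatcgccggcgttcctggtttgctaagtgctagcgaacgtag

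Counted from the gene's start, the half-site began at position -154 in Cyp2c29 and at -213 in Mfsd2a, and these letters were in neither window of Cyp2c37 and Cyp2c50. Both strands were searched, overlaps with other motifs were not looked at, and a match is a description of the letters and not a binding site. Among genes higher in KO 71 had a promoter there, and 16 of these (22.5%) held the half-site; among genes lower in KO 12 of 53 did (22.6%). At least 1 promoter held it in 15.8% of the 8056 tested genes and in 18.1% of all 27025 genes with a promoter there. Of the 24 genes with the largest changes 20 had a promoter there, and 6 of them held the letters, namely Cyp2c29, Mfsd2a, Ildr2, Obp2a, Sult1e1 and Tuba8.

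Of 23 tested targets of CAR and PXR, the receptors that answer to drugs and bile acids, 6 were lower in KO livers and 2 higher. Together these were 34.8% of the list, beside 1.50% of all genes tested. The median of the list was 0.0275 (0.0208 over all genes tested), and 12 members had a positive and 11 a negative difference. Besides the 4 Cyp2c genes, the lower ones were Ugt1a1, which conjugates bilirubin, and Abcc3, which exports bile acids and conjugates from hepatocytes to blood. Ugt1a1 had intensities of 68.9, 61.3 and 125 in male KO livers, against 384, 282 and 285 in male WT livers, with no overlap, and a log2 difference of -1.76 (SE 0.29, adjusted p = 0.00418). Abcc3 had 300.05, 301 and 228 in male KO livers, against 964, 1003 and 625 in male WT livers, and a log2 difference of -1.57 (SE 0.23, adjusted p = 0.00186). The 2 higher members were the glutathione transferase Gstm3, at 2.11 (adjusted p = 0.00349), and Papss2, at 1.53 (adjusted p = 0.0264), which makes the sulfate donor for sulfotransferases; the count of 2 was 1 without WT 2, KO 4, KO 5 or KO 6. Cyp2b10, the classical CAR target, was at 16.2, 6.27 and 9.81 in male KO livers, against 44.2, 63.9 and 233 in male WT livers; no KO array detected it and the groups did not overlap, but it did not pass (adjusted p = 0.166). Cyp3a11, the classical PXR target, had a difference of 0.42 (adjusted p = 0.551).

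Conjugating enzymes moved in both directions. Of 39 tested genes for glucuronidation, sulfation and glutathione transfer 5 were higher and 3 lower in KO livers. That is 20.5% of the list, beside 1.50% of all genes tested. The gene with the largest fitted rise of the whole comparison was Sult1e1, the sulfotransferase that inactivates estrogens. Its intensities were 176, 581 and 1081 in male KO livers, against 4.17, 9.39 and -12.6 in male WT livers, so it was detected in all 3 KO livers and in no WT liver. It was at least 13.6-fold higher in KO livers (adjusted p = 0.0147), and the call was lost in 4 of the 26 alternatives. The list's 5 higher members became 2 without WT 2, KO 5 or KO 6 and 3 without WT 3 or with the 6 male arrays alone, and the 3 lower ones stayed at 3 without any single liver. Gstm3, at 166, 113 and 186 in male KO livers, against 47.6, 4.71 and 28.7 in male WT livers, and Gstm2, at 7455, 7279 and 8123 in male KO livers, against 3432, 3462 and 3289 in male WT livers, rose by a log2 difference of 2.11 and 1.16. Gstt1 and the glycosyltransferase gene Ugt3a2 rose by 0.79 and 0.91. The glucuronosyltransferases Ugt2b35 and Ugt2b34 fell, with log2 differences of -1.25 (SE 0.21, adjusted p = 0.0038) and -1.08 (SE 0.15, adjusted p = 0.0015). Ugt2b34 had intensities of 2087, 2242 and 2199 in male KO livers, against 4335, 4623 and 4911 in male WT livers, so the spread within each genotype was small beside the difference. Families of this kind hold close paralogs, and the specificity of the probes was not tested.

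**Figure D2:**
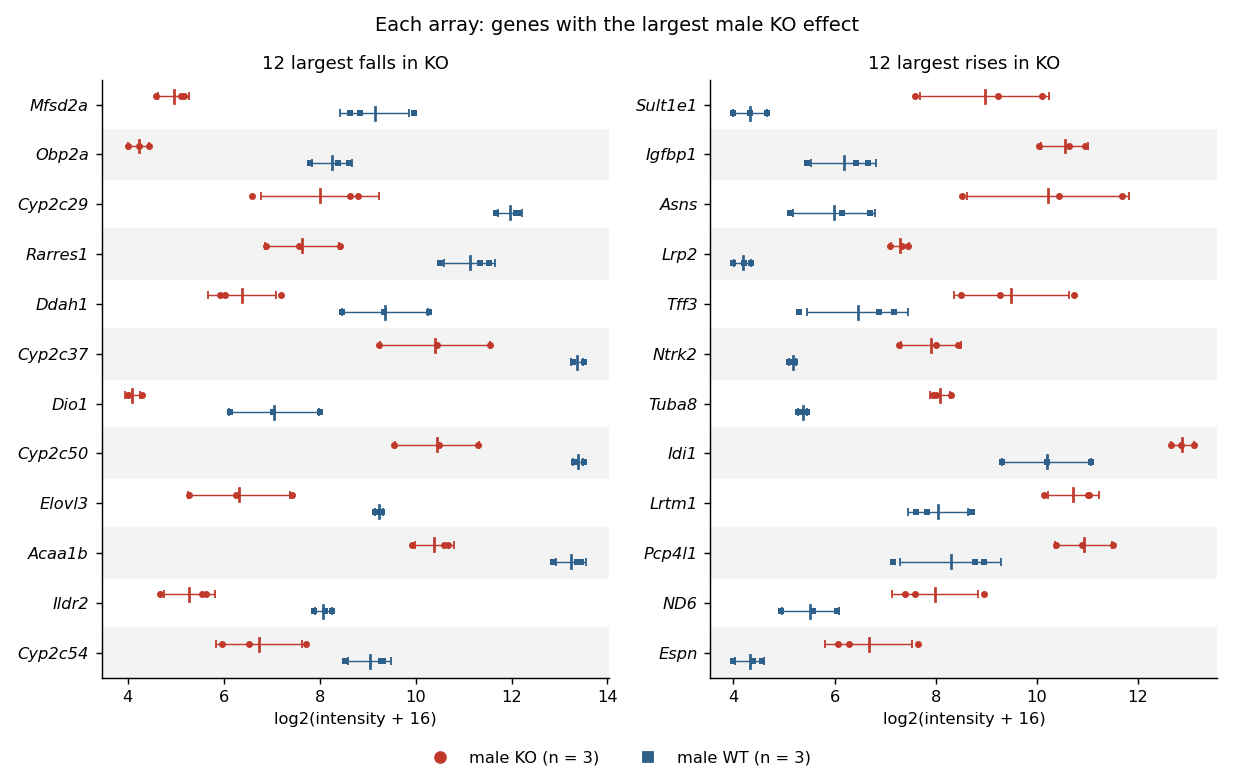
Log2(intensity + 16) in each of the 3 male KO (red circles) and 3 male WT (blue squares) livers for the 12 genes with the largest falls (left panel) and the 12 with the largest rises (right panel) among called genes detected on every array of a genotype; long ticks are means and bars are SD. In each gene the KO and WT points do not overlap, as the choice of genes requires.

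Other large falls were in genes of lipid, hormone and arginine handling. Mfsd2a, a transporter of lysophosphatidylcholine that carries docosahexaenoic acid, had intensities of 18.2, 8.05 and 19.9 in male KO livers, against 977, 382 and 441 in male WT livers. It was detected in every WT liver and in no KO liver and was at least 15.3-fold lower in KO (adjusted p = 0.000846). Rarres1, named as a gene that responds to retinoic acid, had intensities of 173, 328 and 102 in male KO livers, against 1448, 2924 and 2584 in male WT livers, a log2 difference of -3.50 (SE 0.37, adjusted p = 0.000127). Ddah1, which degrades the nitric oxide synthase inhibitor dimethylarginine, had 48.8, 44.9 and 130.1 in male KO livers, against 1219.8, 339 and 629.6 in male WT livers, a difference of -2.98 (SE 0.54, adjusted p = 0.00766). Ildr2, an immunoglobulin-like protein studied in mice for its part in liver lipid handling, had 9.38, 30.4 and 33.4 in male KO livers, against 288, 219.7 and 259.7 in male WT livers, a difference of -2.80 (SE 0.33, adjusted p = 0.000316). In all of them the lowest WT liver exceeded the highest KO liver.

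Dio1, the deiodinase that converts thyroxine to the active thyroid hormone, was at 3.51, -9.08 and -9.61 in male KO livers, against 53.8, 114 and 240.0 in male WT livers. It was not detected in any KO liver and was at least 3.58-fold lower (adjusted p = 0.00951), though a second, dimmer probe gave a log2 difference of -0.42, which did not pass. Of 8 tested genes of thyroid hormone handling and response the other member that passed was Serpina6, which encodes the plasma carrier of corticosteroids, not of thyroid hormone. It rose with a log2 difference of 1.40 (SE 0.31, adjusted p = 0.0331) and lost its call in 7 of the 26 alternatives, those without WT 2, WT 3, KO 4, KO 5 or KO 6 among them, and Dio1 lost its call without WT 3. The thyroid hormone target Thrsp had a difference of -1.33 (adjusted p = 0.264).

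Genes of fatty acid oxidation leaned lower, with few single calls. Of 34 tested PPARα targets and oxidation genes 3 were lower and 1 was higher, 29 had a negative and 5 a positive difference, and the median was -0.386 (-0.328 with the gene undetected in 1 genotype at its bound) against 0.0208 over all genes tested. The calls were 11.8% of the list, beside 1.50% of all genes tested. At an unadjusted p under 0.05 the counts were 12 lower and 2 higher, beside 672 lower and 747 higher over all 9906 genes. Acaa1b, a peroxisomal thiolase of the last step of beta-oxidation, had intensities of 953, 1519 and 1618 in male KO livers, against 11169, 7484 and 10576 in male WT livers, a log2 difference of -2.84 (SE 0.31, adjusted p = 0.00017). Decr2, which handles unsaturated acyl chains in peroxisomes, fell with a difference of -1.44 (SE 0.28, adjusted p = 0.0128), and Ech1, another enzyme for unsaturated chains, with -0.83 (SE 0.16, adjusted p = 0.0147). Pdk4, the kinase that shuts off pyruvate oxidation, moved the other way, at 386, 159 and 597 in male KO livers, against 97.8, 21.4 and 69.1 in male WT livers, a difference of 2.30 (SE 0.48, adjusted p = 0.0204). Cyp4a14, a fatty acid hydroxylase and classical PPARα target, had intensities of -1.4, 147 and 17.96 in male KO livers, against 413, 402 and 118 in male WT livers, which overlap, and its difference of -2.69 did not pass (adjusted p = 0.166). The count of lower members was 1 without WT 2, without WT 3 or without KO 4, and that of higher members (Pdk4) was 0 without WT 2, WT 3, KO 4 or KO 6. Outside the list, Suclg2, a subunit of succinyl-CoA synthetase, Aldh3a2, which oxidizes fatty aldehydes, and the coactivator gene Ppargc1a also fell, with differences of -0.82 (adjusted p = 0.0137), -1.77 (adjusted p = 0.0108) and -0.96 (adjusted p = 0.024).

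Several genes of cholesterol synthesis rose in KO livers. The list of cholesterol synthesis and uptake had 19 tested genes, 9 of them higher and 0 lower, and at an unadjusted p under 0.05 the counts were 13 and 0. The calls made up 47.4% of the list, beside 1.50% of all 9906 genes tested. Over all genes the unadjusted counts were 747 higher and 672 lower. The median difference of the list was 0.922 (0.0208 over all genes tested), and 16 of 19 had a positive difference. In the early steps, which build isoprenoid units, Idi1, the isomerase of isopentenyl diphosphate, had intensities of 6435, 8846 and 7348 in male KO livers, against 1153, 619 and 2136 in male WT livers. It rose by a log2 difference of 2.68 (SE 0.54, adjusted p = 0.0149), with every KO liver above every WT liver. Pmvk and Mvd, the kinase and decarboxylase just before it, rose by 1.09 and 1.18, and Fdps, which joins the units to farnesyl diphosphate, by 0.83. Mvk, the first kinase of the series, had a difference of -0.22 (adjusted p = 0.764).

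In the sterol-forming steps, Sqle, the epoxidase that opens this part of the pathway, had intensities of 3559, 4813 and 2381 in male KO livers, against 1074, 1103 and 1270.3 in male WT livers, a log2 difference of 1.57 (SE 0.25, adjusted p = 0.00275). Lss, which closes the ring to lanosterol, had 1196, 1646 and 1062 in male KO livers, against 522, 381 and 470.5 in male WT livers, a difference of 1.46 (SE 0.23, adjusted p = 0.00287). Hsd17b7, a ketosteroid reductase of the pathway, had 6159.5, 6393 and 4775 in male KO livers, against 2757, 1878 and 2301 in male WT livers, a difference of 1.32 (SE 0.24, adjusted p = 0.00806). In these 3 genes the lowest KO liver lay above the highest WT liver. Msmo1 and Nsdhl, which remove methyl groups from the ring, rose by 1.24 and 1.00. Cyp51, at 2538, 3617 and 2078 in male KO livers, against 1185, 1199.6 and 1312 in male WT livers, and Dhcr7, the last enzyme before cholesterol, at 1491, 2244 and 1292 in male KO livers, against 974, 629 and 1009 in male WT livers, did not overlap between genotypes, but did not pass (adjusted p = 0.0551 and 0.0837). Ebp and Sc5d had differences of 0.12 (adjusted p = 0.698) and 0.15 (adjusted p = 0.804). Among the regulators, Srebf2, the transcription factor that drives the pathway, had a difference of 0.69 (adjusted p = 0.0821), Insig1 one of 0.17 (adjusted p = 0.776) and Insig2 one of -0.32 (adjusted p = 0.463). The count of 9 fell to 3 without WT 2, to 5 without WT 3 and to 4 without KO 4 or without KO 5.

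**Figure D3:**
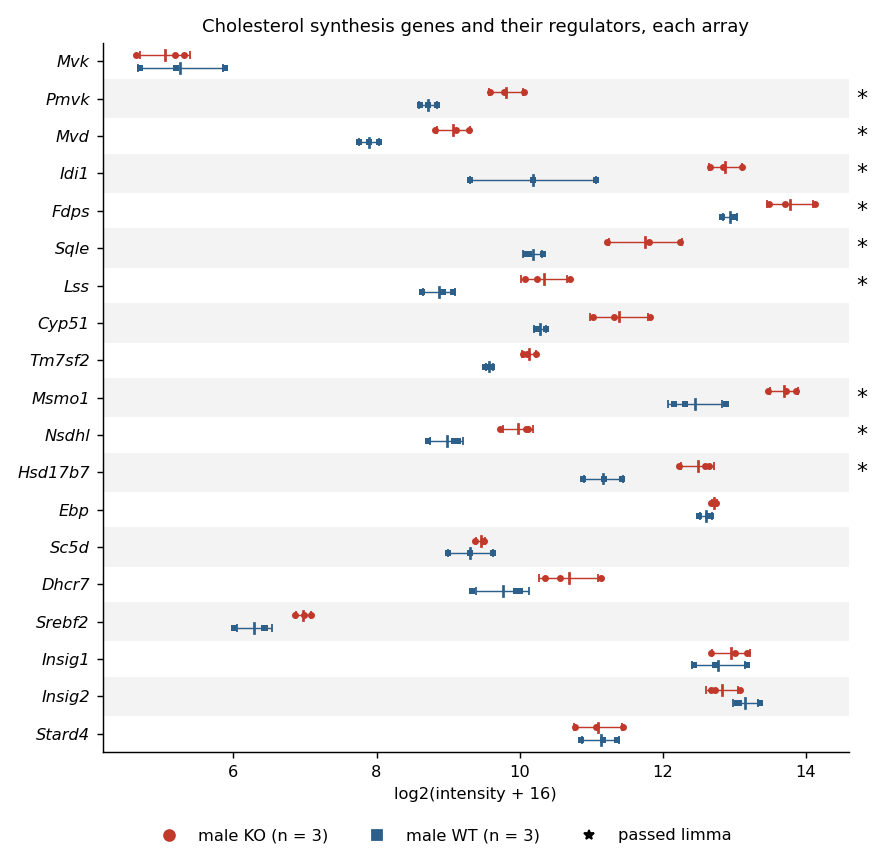
Log2(intensity + 16) of the 19 tested genes of cholesterol synthesis and uptake in each male KO (red circles) and male WT (blue squares) liver, in the order of the pathway with the regulators last; long ticks are means, bars are SD and stars mark the 9 genes that passed. The KO points lie to the right of the WT points in every starred gene, and the regulators Insig1 and Insig2 overlap.

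Fatty acid and triglyceride synthesis, with 28 genes tested, had 1 call, Elovl3, an elongase of long saturated chains, at 155, 22.9 and 59.8 in male KO livers, against 550.2, 613 and 601 in male WT livers, a log2 difference of -2.92 (SE 0.35, adjusted p = 0.000316). Genes that the study follows for male and female lipid handling did not pass in male livers apart from Elovl3. Pnpla3, a lipase-like gene tied to fatty liver, had 357, 77.2 and 402 in male KO livers, against 269.9, 34.1 and 65.8 in male WT livers, with overlap. The elongase gene Elovl6 had 1416, 1669.7 and 1820.4 in male KO livers, against 1065, 611 and 651 in male WT livers; its groups did not overlap, and its difference of 1.10 did not pass (adjusted p = 0.0727). Scd1 had a difference of 0.32 (adjusted p = 0.641), Fasn of -0.23 (adjusted p = 0.851) and Lpin1 of 0.29 (adjusted p = 0.902). The steroid genes Cyp7b1 and Hsd3b5 had differences of 0.64 (adjusted p = 0.63) and 0.19 (adjusted p = 0.925), the sulfotransferase gene Sult3a1 of -0.65 (adjusted p = 0.318), and Rgs16, Ttc39c and Egfr of 0.75 (adjusted p = 0.818), -0.69 (adjusted p = 0.179) and 0.61 (adjusted p = 0.477). Sult3a1 was detected on no male KO array and on 1 male WT array, so its difference rests on values near or below the detection limit. Of 34 tested genes known as male-biased in liver 1 was higher (the complement gene C6) and 1 lower (Elovl3) by limma. At an unadjusted p under 0.05 the counts were 4 higher and 8 lower. Of 27 female-biased genes 0 were higher or lower by limma, with 1 higher and 6 lower at the unadjusted cut. Over all 9906 genes tested that cut gave 747 higher and 672 lower.

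In bile acid synthesis, with 17 genes tested, Cyp8b1, the 12-alpha-hydroxylase that sets the share of cholic acid, was the member that passed. It had intensities of 10260.0, 11983 and 12179 in male KO livers, against 5577, 5843 and 6335 in male WT livers, a log2 difference of 0.95 (SE 0.21, adjusted p = 0.0334), and lost its call without any one of the 6 male livers. Cyp7a1, the rate-limiting enzyme, had 3694, 5325 and 1023 in male KO livers, against 891, 1493 and 1569.7 in male WT livers; KO 6 lay within the WT range, and the difference was 1.08 (adjusted p = 0.319). Of 15 tested transporters of bile acids and organic anions Abcc3 passed, and the uptake carrier Slc10a1 and the bile salt pump Abcb11 had differences of -0.75 (adjusted p = 0.235) and -0.56 (adjusted p = 0.313). Of 15 tested LXR targets and efflux genes 0 passed, with 1 higher and 2 lower at an unadjusted p under 0.05. Over all 9906 genes tested 747 were higher and 672 lower at this cut. The sterol exporter genes Abcg5 and Abcg8 had differences of -0.01 (adjusted p = 0.991) and 0.58 (adjusted p = 0.638). Apoa4, an apolipoprotein of triglyceride-rich particles, was the 1 call among 19 tested apolipoproteins and related genes, at 13609, 23324 and 11612 in male KO livers, against 4086, 4992 and 4852 in male WT livers, a difference of 1.74 (SE 0.27, adjusted p = 0.0024).

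RNA of the tested receptors that pair with RXRα did not pass in either direction. The partner genes Nr1h2 (LXRβ), Rara (a retinoic acid receptor), Thra and Thrb (the thyroid hormone receptors), Nr4a1 and Nr4a2 were not tested. Of 13 tested genes for RXR isoforms and partners 0 passed, and 2 were higher and 0 lower at an unadjusted p under 0.05. At that cut 747 of all 9906 genes tested were higher and 672 lower. Nr1h4, which encodes FXR, had intensities of 3808, 3199 and 3063 in male KO livers, against 2476, 1961 and 2542 in male WT livers, and Nr1i3, which encodes CAR, had 1288, 1569.7 and 1615 in male KO livers, against 673, 1051 and 823 in male WT livers. In both the KO values all exceeded the WT values, with differences of 0.53 (adjusted p = 0.158) and 0.82 (adjusted p = 0.14). The KO values of the isoform gene Rxrg also all exceeded its WT values. Among all genes tested 23.1% had no overlap between the 3 KO and 3 WT arrays, in either direction. The other isoforms Rxrb and Rxrg had differences of 0.14 (adjusted p = 0.793) and 0.62 (adjusted p = 0.383), and Ppara, Nr1h3 (LXRα) and Nr1i2 (PXR) of 0.33 (adjusted p = 0.568), -0.18 (adjusted p = 0.787) and -0.17 (adjusted p = 0.686). Pparg, Ppard, Vdr, Rarb and Rarg had differences of -0.40 (adjusted p = 0.626), 0.94 (adjusted p = 0.501), 0.50 (adjusted p = 0.546), 0.15 (adjusted p = 0.813) and -0.14 (adjusted p = 0.877). Ppara was detected on no male WT array, Rarg on no male KO array and Vdr on no male array. The differences of Ppara, Rarg and Vdr therefore rest on values near or below the detection limit. Of 21 tested genes of retinoid metabolism and response the retinol dehydrogenases Rdh11 and Rdh5 were higher, with differences of 1.10 (SE 0.19, adjusted p = 0.00655) and 1.09 (SE 0.17, adjusted p = 0.00275). Cyp26a1, which clears retinoic acid, had a difference of -0.18 (adjusted p = 0.832).

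Genes of amino acid, insulin and growth hormone responses held some of the largest rises. Asns, asparagine synthetase, had intensities of 1378, 3277 and 352 in male KO livers, against 55.1, 18.6 and 87.6 in male WT livers, a log2 difference of 4.23 (SE 0.60, adjusted p = 0.0015). The KO livers spread widely, with KO 5 highest and KO 6 lowest, and all lay above the WT livers. Of 18 tested genes of the amino acid stress response to which Asns belongs it was the 1 that passed, and Trib3, Ddit3 and Atf4 had differences of -0.51 (adjusted p = 0.481), 0.65 (adjusted p = 0.415) and 0.22 (adjusted p = 0.677). Igfbp1, a binding protein for insulin-like growth factors that insulin suppresses, had 1566, 1043 and 1976 in male KO livers, against 70.0, 85.7 and 27.7 in male WT livers, a difference of 4.36 (SE 0.88, adjusted p = 0.0156), and lost its call in 3 of the 26 alternatives. Igfbp2, of the same family, moved the other way, at 336, 432 and 522 in male KO livers, against 2277, 1993 and 1672 in male WT livers, a difference of -2.17 (SE 0.49, adjusted p = 0.0344), and lost its call in 9. The glucose-producing enzymes Pck1 and G6pc had differences of 0.22 (adjusted p = 0.891) and 0.22 (adjusted p = 0.871), and Igf1 one of 0.06 (adjusted p = 0.92).

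Csad, Mat1a and Oat, enzymes of amino acid or sulfur metabolism, also rose. Csad, which makes taurine, the partner of bile acids in mice, had intensities of 9479.5, 7704 and 6691 in male KO livers, against 1622, 1627 and 1376 in male WT livers, a log2 difference of 2.35 (SE 0.46, adjusted p = 0.0146). Mat1a, which makes S-adenosylmethionine in liver, had 28760.0, 34229 and 34361 in male KO livers, against 22963, 16073 and 17971 in male WT livers, a difference of 0.78 (SE 0.16, adjusted p = 0.0203). Oat, ornithine aminotransferase, was the 1 call among 18 tested genes of nitrogen handling, at 18481, 27149 and 24672 in male KO livers, against 12832, 8818 and 10495 in male WT livers, a difference of 1.13 (SE 0.24, adjusted p = 0.0212). Csad lost its call without WT 2, WT 3, KO 4 or KO 5, and Mat1a and Oat without WT 2, WT 3, KO 5 or KO 6. In each of them the 3 KO livers exceeded the 3 WT livers. Afmid, an enzyme of tryptophan breakdown, also rose, by 1.21. Its other detected probes gave smaller differences, from 0.759 to 0.963, and among them only that at 0.948 passed (adjusted p = 0.0314). Kyat3, a transaminase of the same pathway, fell with a difference of -1.43 (adjusted p = 0.00914).

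Several genes with large rises encode proteins better known from other tissues. Lrp2, which encodes megalin, the endocytic receptor of kidney tubules, had intensities of 160.0, 144 and 120.5 in male KO livers, against 4.27, 2.39 and -2.75 in male WT livers. It was detected in every KO liver and in no WT liver and was at least 4.24-fold higher (adjusted p = 1.43e-06). Tff3, a secreted trefoil peptide of mucosa, had 1678, 599 and 345 in male KO livers, against 23.5, 102 and 128 in male WT livers, a log2 difference of 3.04 (SE 0.56, adjusted p = 0.0086). Ntrk2, the receptor for brain-derived neurotrophic factor, had 329, 138 and 242 in male KO livers, against 21.1, 20.7 and 18.2 in male WT livers, a difference of 2.73 (SE 0.40, adjusted p = 0.00167), and the tubulin gene Tuba8 had 299, 230.1 and 239 in male KO livers, against 28.0, 25.0 and 23.0 in male WT livers, a difference of 2.71 (SE 0.31, adjusted p = 0.000197). In both of these the WT livers lay close to the detection limit, and 1 of 3 WT arrays detected Ntrk2. Aqp4, a water channel of brain and other tissues, had 1079.5, 660.1 and 1352 in male KO livers, against 118, 279.7 and 227 in male WT livers, a difference of 2.24 (SE 0.36, adjusted p = 0.00292).

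Pcp4l1, Lrtm1 and Espn, which encode a small protein related to a Purkinje cell protein, a leucine-rich repeat protein and an actin-bundling protein, also rose. Pcp4l1 had 1889, 1306 and 2884 in male KO livers, against 126, 478 and 424 in male WT livers, and Lrtm1 had 2068, 1105 and 2049.8 in male KO livers, against 209.7, 179 and 407 in male WT livers, with log2 differences of 2.63 (adjusted p = 0.00504) and 2.67 (adjusted p = 0.00178). Espn was not detected in WT livers and was at least 2.76-fold higher in KO (adjusted p = 0.0203), but it lost its call in 7 alternatives, and its 2 other detected probes gave differences of opposite signs, neither of which passed. ND6, a mitochondrially encoded subunit of respiratory complex I, had 152, 479 and 177 in male KO livers, against 50.5, 14.7 and 31.6 in male WT livers, a difference of 2.46 (SE 0.52, adjusted p = 0.0209). For all 149 called genes together, 65 had at least 1 more detected probe, and 88 of these 93 probes changed in the same direction as the probe reported, 41 of them past the threshold when adjusted over all detected probes.

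Some plasma protein genes rose. Of 36 tested complement and coagulation genes 4 were higher and 0 lower, namely C6, Pros1 (protein S), C4bp (C4b-binding protein) and Serpinc1 (antithrombin), with log2 differences of 1.33, 0.69, 0.64 and 0.62. Serpinc1 had intensities of 9803, 10092 and 11145 in male KO livers, against 7009, 6740.1 and 6455 in male WT livers, with no overlap. Its second detected probe had a log2 difference of 0.012 (adjusted p = 0.987). The list's median was 0.198 (0.0208 over all genes tested). Its calls were 11.1% of the list, beside 1.50% of all genes tested. The count of 4 was 0 without WT 2, WT 3, KO 4, KO 5 or KO 6, 1 without WT 1, female WT 5 or female KO 6 and with the 6 male arrays alone or the mean of all detected probes, and 2 without female WT 3 or female KO 8. Of 24 tested acute phase genes 0 passed, with 8 higher and 1 lower at an unadjusted p under 0.05. The metallothioneins Mt1 and Mt2, on the same list, had differences of 2.05 (adjusted p = 0.0551) and 1.83 (adjusted p = 0.0688), and Saa1 had 18254, 16842 and 8361 in male KO livers, against 8758, 21815 and 36227 in male WT livers, with overlap. Among genes of the circadian clock and its output, cell cycle, unfolded protein response, oxidative stress, early response and major urinary proteins 0 passed by limma. In this order, these lists had 16, 13, 15, 18, 13 and 6 genes tested. At an unadjusted p under 0.05 they held 3, 1, 0, 3, 1 and 0 higher genes and 0, 0, 1, 0, 0 and 0 lower ones. Over all 9906 genes tested the counts at this cut were 747 higher and 672 lower.

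**Figure D4:**
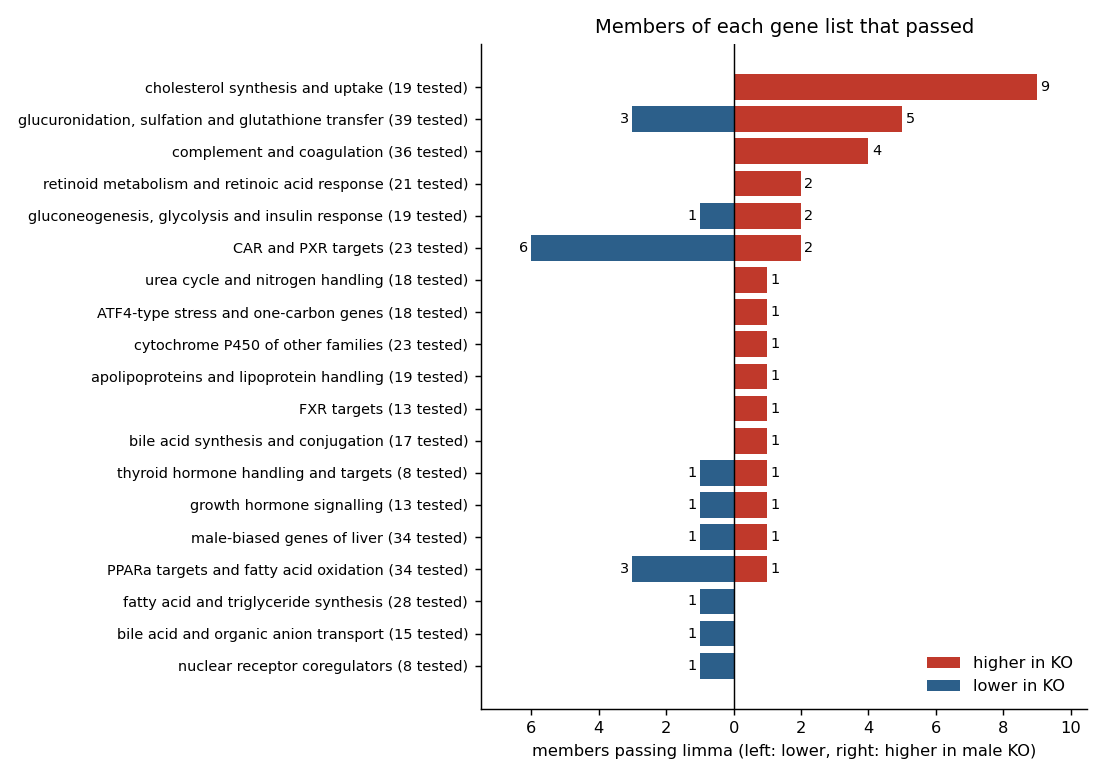
Number of members of each gene list that passed limma in male KO against male WT livers, lower in KO to the left and higher in KO to the right, for the pathway lists with at least 1 call; the number tested stands beside each name and a gene can be on several lists. Cholesterol synthesis, with 9 of 19 higher, and targets of CAR and PXR, with 6 of 23 lower, hold the largest counts among these pathway lists.

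Markers of other liver and blood cells showed 1 call. The 11 marker lists gave 0 passing genes apart from Amy2a5, an amylase of the exocrine pancreas list, at 20871, 20168 and 24461 in male KO livers, against 13170.2, 13778 and 12398 in male WT livers, a log2 difference of 0.73 (SE 0.17, adjusted p = 0.0415). It lost its call in 13 of the 26 alternatives, those without any one of the 6 male livers among them. Whether its probe tells it apart from the close paralog for salivary and liver amylase was not tested. The summed intensity of the 3 tested pancreas markers of 10 was 22479 to 26902 in KO and 14731 to 17229 in WT livers, and the elastase genes Cela1 and Cela2a had differences of 0.04 (adjusted p = 0.978) and -0.74 (adjusted p = 0.275). The 4 tested neutrophil markers of 11 summed to 2458 to 5185 in KO and 691.7 to 1437 in WT livers, which was mostly Lcn2, at 3662, 4684 and 2080.5 in male KO livers, against 767, 353 and 471 in male WT livers, a difference of 2.67 (adjusted p = 0.0658). The neutrophil genes Ly6g, Ngp, Ltf, Elane, Mpo, Retnlg and Cxcr2 of that list were not tested, and S100a8 and S100a9 had differences of 0.11 (adjusted p = 0.958) and 0.24 (adjusted p = 0.873). Kupffer cell markers, 14 of 16 tested, summed to 10340 to 15782 in KO and 9508 to 10881 in WT, and erythroid markers, 5 of 10 tested, to 49814 to 67238 in KO and 69385 to 86173 in WT. The part of these cells in the gene differences above was not tested.

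The genes closest to the tallest RXRα peaks of male liver chromatin were set beside these differences. They were taken by name from the study's own list of peaks over 300 high, at any distance from the gene. Of 271 such genes tested here 6 were higher and 11 lower in KO livers, which is 6.27% of them beside 1.50% of all genes tested. Their median log2 difference was 0.0432. The higher ones were Igfbp1, Csad, Pla2g6 (a phospholipase), Papss2, Lancl1 and Gstt1. The lower ones were Ddah1, Acaa1b, Igfbp2, Ces1e, Ppl, Decr2, Kyat3, Lin7a, Slc46a3, Ugt2b34 and Suclg2. Ces1e, a carboxylesterase, had intensities of 757, 469 and 1246 in male KO livers, against 2982, 3218 and 2755 in male WT livers, a difference of -1.94 (SE 0.31, adjusted p = 0.00305). Pla2g6 had 366, 339 and 376 in male KO livers, against 128, 34.1 and 72.7 in male WT livers, a difference of 2.12 (SE 0.40, adjusted p = 0.00937). The gene closest to a peak need not be its target. The 11 lower genes became 7 without WT 1, without WT 3 or without KO 5 and 6 without KO 4. The 6 higher genes became 1 without WT 2, 2 without WT 3 or KO 4, and 3 without KO 5 or KO 6.

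Female livers of the same genotypes were set beside the male difference, with 5 KO and 5 WT arrays in the same fit. In females 235 genes passed, 2.37% of those tested, 128 higher and 107 lower in KO. Of the 149 male calls 141 had the same sign in females, 81 of 87 higher and 60 of 62 lower, whereas 5209 of all 9906 genes tested had the same sign in both sexes. Of the 149, 69 also passed in females in the same direction, 33 higher and 36 lower, and 0 passed in the opposite one. Large in both sexes were Sult1e1, with a female difference of 5.09 (adjusted p = 0.000913), Cyp2c29, with -3.59 (adjusted p = 2.04e-05), Rarres1, with -3.06 (adjusted p = 1.46e-05), Mfsd2a, with -3.05 (adjusted p = 0.000979), Acaa1b, with -2.75 (adjusted p = 7.29e-06), Tuba8, with 2.78 (adjusted p = 6.03e-06), and Aqp4, with 3.30 (adjusted p = 6.03e-06). In the cholesterol list 2 genes passed in females, Idi1, with 2.24 (adjusted p = 0.00758), and Nsdhl, with 0.80 (adjusted p = 0.0255), and the list's female median was 0.361. Sqle and Lss had female differences of 0.49 (adjusted p = 0.263) and 0.47 (adjusted p = 0.258). Passing in one sex and not in the other does not show that the effects differ, and the difference itself was tested next.

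By the interaction test 6 of 9906 genes (0.0606%) passed, and 852 genes had an unadjusted p under 0.05. Of the 149 male calls 4 were among the 6. Nat8 was the 1 gene of the 6 detected on all 16 arrays. Lrp2, Obp2a and Elovl3 were detected on no female array and Prom2 on no male array, so no fold was measured in that sex, the fitted difference there rests on values at background, and these 4 tests do not show that an effect differed between the sexes. Obp2a, a lipocalin of the odorant-binding family, had intensities of 5.6, -5.14 and 2.78 in male KO livers, against 207, 373 and 316 in male WT livers, and was at least 8.29-fold lower in male KO (adjusted p = 1.13e-06). No female array of either genotype detected it, and the male minus the female effect was -3.76 (SE 0.35, adjusted p = 9.98e-05). Elovl3 was likewise detected on no female array, and its male minus female effect was -2.70 (SE 0.44, adjusted p = 0.0303). Lrp2, described above, was at -8.32 to 12.6 in female KO livers, against -8.93 to 4.17 in female WT livers, below detection in all 10, and its male minus female effect was 2.88 (SE 0.29, adjusted p = 0.00013). Il27ra, a subunit of the interleukin 27 receptor, was at 1.61, 5.39 and -2.23 in male KO livers, against 13.7, 24.8 and 17.97 in male WT livers, and was detected on 1 male array, that of WT 2. It was at 57.9 to 73.3 in female KO livers, against 30.5 to 55.0 in female WT livers, all above detection, and its interaction was -1.35 (SE 0.23, adjusted p = 0.0427). No male fold was measured for Il27ra, its male difference rests on values near or below the detection limit, and its test carries the same limit as the 4 above.

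The other 2 genes that passed the interaction test did not pass in males. Nat8, an acetyltransferase of cysteine conjugates, was at 5291, 3631 and 4923 in male KO livers, against 1682, 2304 and 1708 in male WT livers, and at 1881 to 4017 in female KO livers, against 26.4 to 88.4 in female WT livers. Its difference was 1.27 (adjusted p = 0.0705) in males and 5.09 (adjusted p = 9.5e-09) in females, and the male minus the female effect was -3.82 (SE 0.42, adjusted p = 0.000295). Of its close paralogs, Nat8f2 and Nat8f4 rose in males by 0.78 and 0.72, and lost their calls in 5 and 7 of the 26 alternatives. The other detected probes of Nat8f2 gave differences of 0.84 and 0.77 and that of Nat8f4 one of 0.33, and none of these passed. Prom2, a membrane protein of epithelial cells, was not detected on any male array and was at -12.6 to -1.01 in female KO livers, against 24.4 to 47.4 in female WT livers, with an interaction of 2.11 (SE 0.30, adjusted p = 0.00825).

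**Figure D5:**
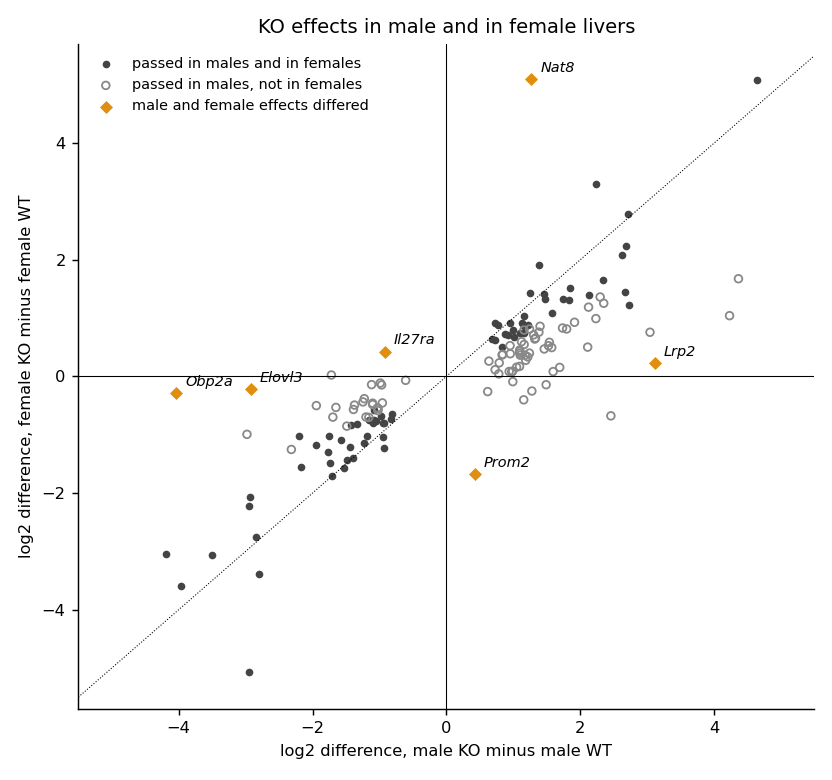
Log2 difference of KO minus WT in female livers (vertical) against that in male livers (horizontal) for the 149 genes that passed in males and the 2 others that passed the interaction test; filled points passed in both sexes, open points in males, and diamonds mark the 6 genes that passed the interaction test. The dotted line marks equal effects; 141 of the 149 genes have the same sign in both sexes.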

How the data were processed

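RNA of 16 mouse livers was measured on Illumina Ref-6 v2 arrays, 3 male KO, 3 male WT, 5 female KO and 5 female WT. The deposited values are intensity values on a linear scale, made by a core facility, and the submitters' processing notes name lumi with no version. The values (35.2 to 35.3% below 0 on each array, nearly the same sorted values on all) show background subtraction and quantile normalization, whose methods are not given in the sources used here. A second table of 32 columns was not used, since its column names match no sample label. Array number limits the precision.

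Values below 0 were set to 0 and 16 was added before taking log2. A probe was detected above 3 times the array's noise, computed as the root mean square over negative values. Of 45281 probes 34885 named 1 gene, 18 several and 10378 none, and 34807 were matched to RefSeq by Entrez number. limma 3.58.1 in R 4.3.3 fitted 1 mean per sex and genotype (12 residual and 4.03 prior degrees of freedom, median residual SD 0.321). On simulated data of the male comparison with 9906 genes, 48% of 100 genes changed by a log2 of 1 and 95% of 100 changed by 2 were recovered, with 11 false calls. Figures used Python 3.11.15.

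The 30 pathway and 11 marker lists were chosen with earlier results of these data known. Genes named are the 12 largest called changes in each direction, up to 4 called members a list, RXR partners, genes the study names, sex-linked checks and interaction genes. Other genes in the text were chosen after their values were seen. Alternatives covered the offset (4 and 50), filters on dim probes, probe choice, array weights, centring, the spread prior, male arrays alone and leaving out each array.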

Additional observations from a re-analysis of the deposited data

Results flagged for a closer look

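By limma's test of the male against the female KO effect 6 genes passed, and no cause was tested. Lrp2, Obp2a and Elovl3 were detected on no female array and Prom2 on no male array, so no fold was measured in that sex and a difference in effect is not shown for them. Il27ra was detected on 1 male array, so no male fold was measured for it and its test carries the same limit. The male effect minus the female effect on the log2 scale was -3.82 for Nat8 (adjusted p = 0.000295), -3.76 for Obp2a (adjusted p = 9.98e-05), -2.70 for Elovl3 (adjusted p = 0.0303), -1.35 for Il27ra (adjusted p = 0.0427), 2.11 for Prom2 (adjusted p = 0.00825) and 2.88 for Lrp2 (adjusted p = 0.00013). Over the alternatives Nat8, Obp2a and Lrp2 passed in every fit that gave the test, with a highest adjusted p of 0.00463, 0.025 and 0.0494, and Prom2, Elovl3 and Il27ra reached 0.0544, 0.322 and 0.206. Among the 12 female groups behind these tests 1 sample stood apart from the others of its group, Obp2a in female KO 8, at an intensity of 13.6, which is below detection; chance marks about 1 in 20 such groups.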

How the results depend on the processing

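Leaving out 1 array at a time, the count of genes higher in male KO ranged from 34 to 107, lower from 36 to 85, the interaction count from 3 to 6 and the female count from 160 to 240. Both lowest male counts came without a male WT array, and each such fit shares its estimate of spread with the female arrays. With array weights 891 genes were higher and 720 lower, and 39 passed the interaction, and the cause was not tested. With the 6 male arrays alone, where fewer degrees of freedom are left, 57 were higher (57 lower), and 88 of the 149 genes kept their call. Among genes detected on at least 8 arrays 1 passed the interaction. Of differences that had not passed, that of Rarb in male KO minus male WT ran from -0.011 (without KO 4) to 0.308, that of Rarg in male KO minus male WT from -0.257 to 0.091 (without WT 3), and that of Rxrb in male KO minus male WT was -0.082 with the mean of all probes, each crossing 0. Centring shifted no array by more than 0.0527. The list counts under alternatives were added after the data were seen. No paired analysis was possible because the KO and WT groups of a sex share no replicate number in the labels. Dim genes near an intensity of 21 carry the least certain folds.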
